A study of Mus musculus with 32 samples.

Results

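The nuclear genes of oxidative phosphorylation were followed in 3 populations sorted from the islets of βVEGF-A; MIP-GFP mice, namely insulin-producing β cells, ECs (endothelial cells) and MΦs (macrophages). The genes were taken by symbol: those that begin with Nduf followed by a, b, c, s or v, Sdha to Sdhd, and those that begin with Uqcr, with Cox4 to Cox8 or with Atp5. Of 22850 genes in the table, 93 matched and 91 reached a normalized score of at least 20 in at least 1 sample. The pseudogene Atp5l-ps1 (highest score 5) and the testis isoform Cox8c (highest score 8) fell below that minimum, and Cox7a1 (62), Cox7b2 (98) and Cox8b (110) were the lowest of the genes kept. Of the 91, 82 encode structural subunits, 38 in complex I, 4 in complex II, 8 in complex III, 17 in complex IV and 15 in complex V. The other 9 are assembly factors or genes with a similar name (Ndufaf1 to Ndufaf4, Sdhaf1, Sdhaf2, Atp5s, Atp5sl and Cox4nb) and are counted with the members but kept apart from the subunits.

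Oxidative phosphorylation couples electron transport to ATP synthesis in the inner mitochondrial membrane. Complexes I (NADH dehydrogenase) and II (succinate dehydrogenase) pass electrons to ubiquinone, complex III passes them on to cytochrome c, complex IV (cytochrome c oxidase) reduces oxygen, and complex V (ATP synthase) uses the resulting proton gradient. In β cells the ATP made in this way closes potassium channels and so links glucose metabolism to insulin release, while ECs are known for a large glycolytic share of their ATP and MΦs for shifting between glycolysis and respiration with their activation state. Complexes I, III, IV and V also hold subunits encoded by mitochondrial DNA; 0 of the 13 such genes were found in the table, so all values concern nuclear transcripts.

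All 32 samples came from mice of the genotype MIP-GFP; RIP-rtTA; TetO-VEGF-A, aged 8 to 16 weeks at the start, so the No Dox controls carried the same transgenes as the treated mice. The rat insulin promoter drives the doxycycline (Dox) dependent activator in β cells, Dox in the drinking water induces human VEGF-A there, and the mouse insulin promoter drives GFP. Islets of several mice were pooled for each sample. β cells were sorted as GFP+ CD31- CD11b- cells, ECs as CD31+ and MΦs as CD11b+ cells at 3 time points: before treatment (No Dox; 4 β cell, 4 EC and 4 MΦ samples), after 1 week of Dox (1wk Dox; 5, 1 and 2 samples) and after 1 week of withdrawal that followed Dox (1wk WD; 3, 5 and 4 samples). The summed score of a library ranged from 23465985 to 53441769, and the members made up 0.161 to 0.499% of it. P-values measure the spread between these pooled samples. In bulk samples, fewer cells of a type and less RNA per cell cannot be told apart.

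The markers of each sorted population matched its label: the summed score of 10 EC markers was 409623 to 659613 in EC samples and at most 57137 elsewhere, and that of 10 MΦ markers was 290627 to 559412 in MΦ samples and at most 7756 elsewhere. Markers of other cells were present as well. The summed score of 10 β cell markers ran from 513966 to 10941261 among the 12 β cell libraries, and that of 8 pericyte and stromal markers from 1025 to 522113; the latter was 1025 and 1121 in the first and second No Dox β cell libraries and at least 24978 in the other 10. Summed acinar markers reached 11273851 and 8624602 in No Dox β cell libraries 3 and 4 and 10549636 in No Dox MΦ library 2, against 154 to 19500 at 1wk Dox in β cells and 866 and 2953 in MΦs. The part of these other cells in the results was not tested. The library numbers in the table's headers fall into 2 separate runs: 28 libraries belong to the earlier run. The later run holds 4, namely both 1wk Dox MΦ libraries, the single 1wk Dox EC library and 1wk WD β cell library 3. The headers do not say what the runs stand for. For MΦs and ECs the 1wk Dox time point and the later run cannot be told apart.

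In No Dox islets the mean level of the subunit genes was highest in β cells, and the order of ECs and MΦs below them depended on 2 MΦ libraries. The median log2(score + 1) of the 82 subunit genes was 9.57 ± 0.18 for β cells, while ECs had 9.24 ± 0.19 and MΦs 8.99 ± 0.40 (mean ± SD over libraries, n = 4 each). β cells (9.40 to 9.80) overlapped ECs, whose highest library was at 9.47, and ECs overlapped MΦs (8.60 to 9.35), but β cells and MΦs did not overlap. The MΦ libraries were uneven, with 8.70, 9.32, 8.60 and 9.35 in libraries 1 to 4, so that libraries 2 and 4 lay above the EC mean and libraries 1 and 3 below all ECs. At 1wk Dox the median was 9.58 ± 0.28 in β cells (n = 5), 9.38 in the single EC sample and 9.60 ± 0.23 in MΦs (n = 2). At 1wk WD it was 9.28 ± 0.46 for β cells (n = 3), with ECs at 9.07 ± 0.17 (n = 5) and MΦs at 9.32 ± 0.10 (n = 4), and all 3 ranges overlapped. With all libraries the No Dox group means fell in the order β cells, ECs, MΦs in each of the 5 complexes, from 9.28 in β cells to 8.65 in MΦs for complex I and from 10.53 to 9.74 for complex V.

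**Figure D1:**
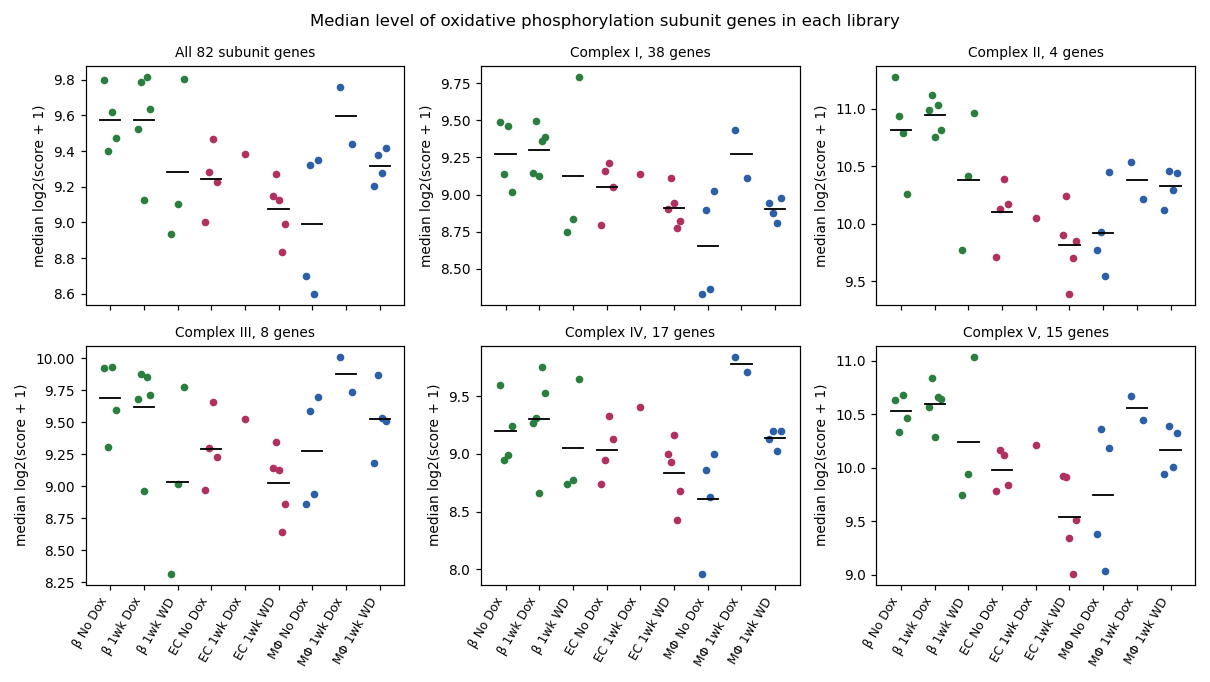
Median log2(score + 1) of the subunit genes in each of 32 libraries, for all 82 genes and by complex; each point is a library and the bar is the mean of a group with more than 1 library. No Dox MΦ libraries lie between 8.60 and 9.35 for all subunits, below the 1wk Dox MΦ libraries at 9.44 and 9.76.

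The cell types were compared at No Dox, the resting state of these islets. Of 90 members tested, 18 passed between β cells and ECs (15 higher and 3 lower in β cells), which is 20% against 48.6% of all genes tested. Between β cells and MΦs 28 members passed (25 higher and 3 lower in β cells, 31.1% against 54.8%), and between ECs and MΦs 17 passed (13 higher and 4 lower in ECs, 18.9% against 43.2%). These counts include calls of Cox6a2 and Cox7a1, which reached the minimum for testing only through the cell type where they were high. The share of members was below that of all genes in each comparison. Each cell type enters 2 of the 3, so these are not independent. The median log2 difference of the members was 0.29 for β cells against ECs (0.07 for all genes), 0.49 for β cells against MΦs (0.12) and 0.17 for ECs against MΦs (-0.01). Under quantile normalization these medians were 0.02 (-0.16 for all genes), 0.24 (-0.05) and 0.25 (0.05), so that relative to all genes the members stood at 0.23, 0.36 and 0.18, and under that scaling at 0.18, 0.28 and 0.19. Most differences were small. Apart from the tissue-restricted isoforms, 69 of 75 subunit genes differed by less than 2-fold between β cells and ECs, 62 of 75 between β cells and MΦs and 71 of 75 between ECs and MΦs. Without EC library 1 the count for β cells against ECs was 11, without MΦ library 1 that for β cells against MΦs was 18, and without EC library 2 or 3 that for ECs against MΦs was 11 or 10. Without MΦ libraries 1 and 3, which had the lowest subunit medians, 12 members passed between β cells and MΦs (11 higher and 1 lower).

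In complex I, an entry point of the chain, all 38 genes had a higher fitted level in β cells than in MΦs, with a median log2 difference of 0.59, and 14 of them passed. Against ECs, 28 of 38 were higher in β cells (median 0.39, 5 passed higher and 2 lower). In complex II the 4 genes were higher in β cells in both comparisons, with 1 passing in each. In complex IV 4 genes passed as higher and 1 as lower in β cells than in ECs. These include Cox6a2 as higher and Cox7a1 as lower, which reached the minimum for testing only through the cell type where they were high. The ends of the range of complex IV were Cox4i2 (-2.56) and Cox6a2, isoforms restricted to some tissues. The plot of differences by complex shows these isoforms standing away from the other subunits.

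**Figure D2:**
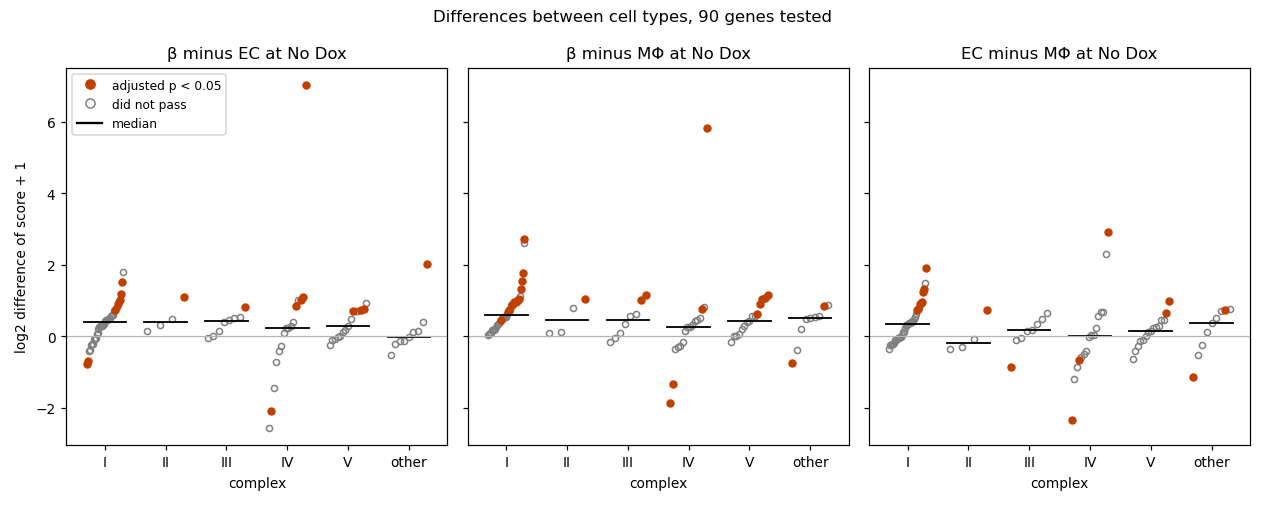
Log2 difference of score + 1 between cell types at No Dox for each of 90 members, by complex; filled points passed at an adjusted p under 0.05 and bars are medians. The highest point of the first panel is Cox6a2, which is listed at 1 in all ECs, so its position depends on the pseudocount and is no bound on its fold difference.

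Complex IV has alternative subunits that are encoded by pairs of genes, and these gave the sharpest contrasts. Cox6a2, the heart and skeletal muscle form of subunit VIa, scored 480, 712, 196 and 68 in No Dox β cells. It was listed at the table's lowest value of 1 in all 10 EC samples, and at 13, 3, 1 and 3 in No Dox MΦs. β cells thus lay above all samples of both other types. Cox6a2 reached the minimum for testing only through the β cells, so its passing against ECs and MΦs is given as a description, with no p-value. In later β cell samples it scored 30, 59, 153, 29 and 138 in the 1wk Dox group and 2, 62 and 299 in the 1wk WD group, while MΦs scored 8 and 17 and then 4, 10, 7 and 15. β cells stayed above MΦs in the Dox group, and 1 of the 3 WD β cell samples lay below all 4 WD MΦ samples. The ubiquitous partner Cox6a1 overlapped among all 3 cell types at No Dox, with β cells at 1525 to 2082, ECs at 1684 to 2905 and MΦs at 909 to 2487, and it passed in no comparison of cell types.

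The sequences before the transcription starts of this pair and of the Cox4i pair are shown to set a tissue-restricted gene beside its common partner. Each is the 200 bases before the start on the gene's strand, 5′ to 3′, in the genome build mm9 (NCBIM37): Cox6a1 at chr5:115798991-115799190 on the minus strand, Cox6a2 at chr7:135349881-135350080 on the minus strand, Cox4i1 at chr8:123191990-123192189 on the plus strand and Cox4i2 at chr2:152579709-152579908 on the plus strand. Capitals mark matches to the motifs named after the sequences.
Cox6a1: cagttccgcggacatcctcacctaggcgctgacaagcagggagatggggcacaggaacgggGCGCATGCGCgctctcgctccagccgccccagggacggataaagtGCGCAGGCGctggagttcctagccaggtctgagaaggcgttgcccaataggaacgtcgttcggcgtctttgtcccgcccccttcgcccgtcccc
Cox6a2: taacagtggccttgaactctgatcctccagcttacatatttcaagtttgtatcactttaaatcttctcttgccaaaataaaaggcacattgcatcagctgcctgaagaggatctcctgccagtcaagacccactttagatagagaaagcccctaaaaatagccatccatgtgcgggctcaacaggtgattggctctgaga
Cox4i1: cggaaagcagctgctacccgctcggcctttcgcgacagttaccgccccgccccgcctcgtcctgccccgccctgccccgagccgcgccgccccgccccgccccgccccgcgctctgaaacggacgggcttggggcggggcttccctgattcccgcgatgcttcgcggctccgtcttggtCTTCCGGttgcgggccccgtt
Cox4i2: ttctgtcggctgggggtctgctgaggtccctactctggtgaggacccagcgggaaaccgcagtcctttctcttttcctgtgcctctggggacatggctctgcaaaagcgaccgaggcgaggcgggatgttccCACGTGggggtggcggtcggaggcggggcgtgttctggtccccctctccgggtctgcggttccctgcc

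Motifs of regulators known for respiratory genes were searched on both strands from 250 bases before to 50 bases after the start. The NRF1 motif GCGCANGCG was found at 17 of 91 members (18.7%, against 9.82% of 17958 genes that reached the same minimum score), the ETS motif CCGGAAG, which GABP can bind, at 20 (22.0% against 12.9%) and the YY1 motif AANATGGCG at 9 (9.89% against 3.58%). The core of the hypoxia response motif, ACGTG, was found at 21 members (23.1% against 22.7%). At least 1 of the NRF1, ETS and YY1 motifs stood at 39 of 91 members (42.9%, against 23.1% of all). Among the 7 tissue-restricted isoforms kept (Cox4i2, Cox6a2, Cox6b2, Cox7a1, Cox7b2, Cox8b and Ndufa4l2) 0 held any of the 3, against 39 of the other 84. The sequence before Cox6a1 holds overlapping matches on both strands and a further match to the NRF1 motif, that before Cox4i1 an ETS match, that before Cox6a2 none of the 4 motifs, and that before Cox4i2 an ACGTG match on each strand over the same bases. A match describes these letters and is no measured binding. The number of CpG steps in the 200 bases was lower as well, with a median of 4 before the restricted isoforms, 12 before the other members and 10 before all genes.

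Cox7a1, the heart and muscle form of subunit VIIa, was highest in ECs at No Dox, with low scores. It scored 62, 51, 35 and 43 in No Dox ECs, 4, 14, 28 and 6 in β cells and 10, 11, 1 and 5 in MΦs, and the ECs overlapped neither. Cox7a1 reached the minimum for testing only through the ECs, so these differences are given as a description. The call for β cells against ECs was in any case lost without No Dox β cell library 1 or 4 or EC library 1, 2 or 4 (adjusted p from 0.0538 to 0.0766). At 1wk WD ECs scored 16, 20, 25, 7 and 43 and overlapped β cells (14, 6 and 13) and MΦs (4, 4, 13 and 13), and Cox7a1 passed in no comparison of cell types there (adjusted p from 0.0915 to 0.600). The widely expressed Cox7a2 overlapped between β cells (493 to 977) and ECs (523 to 762). It was 268 to 484 in MΦs, lower than in β cells (log2 difference 0.76 ± 0.28 (SE), adjusted p = 0.0370), a call lost without any 1 of 6 libraries (0.0502 to 0.107). Cox7a2l, a related protein of respiratory supercomplexes, was 2795 to 7803 in β cells and 1804 to 2800 in ECs (1.02 ± 0.37, adjusted p = 0.0391), and this call too was lost without any 1 of 6 libraries (0.0557 to 0.110).

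Cox6b2, a subunit VIb form first described in testis, was the MΦ gene of the group. It scored 207, 179, 273 and 126 in No Dox MΦs, 28, 47, 25 and 53 in ECs and 74, 67, 50 and 124 in β cells, and the MΦs lay above all samples of both. The log2 difference of ECs against MΦs was -2.35 ± 0.43 (adjusted p = 0.000806), and that of β cells against MΦs was -1.33 ± 0.43 (adjusted p = 0.0207). The β cell call was lost without β cell library 3 (0.0563) or MΦ library 3 (0.0532), and the EC call passed in every alternative tried. At 1wk Dox the MΦs scored 165 and 182, and at 1wk WD 178, 180, 200 and 145. The common form Cox6b1 overlapped among the cell types at No Dox, with 398 to 821 in β cells, 491 to 706 in ECs and 398 to 952 in MΦs. Cox7b2, another form known from testis, was above 1 in β cells only: it scored 12, 10, 6 and 1 at No Dox, 1, 13, 98, 1 and 6 after 1wk Dox and 10, 2 and 19 after 1wk WD, and was listed at 1 in all 20 EC and MΦ samples. Its means were below the minimum for testing between cell types, and between time points in β cells it did not pass (adjusted p from 0.941 to 0.999). Its partner Cox7b was higher in β cells (1625, 1409, 1265 and 853) than in ECs (384, 657, 783 and 602) at No Dox, by 1.09 ± 0.29 on the log2 scale (adjusted p = 0.00819). Cox8b, the muscle form of subunit VIII, stayed at or below 110 in all samples and was lower in β cells (10, 8, 3 and 23) than in MΦs (72, 22, 34 and 28) with overlap (-1.87 ± 0.63, adjusted p = 0.0244; lost without β cell library 3, 0.0701, or MΦ library 1, 0.0730), while Cox8a scored 777 to 1198 in β cells and 462 to 643 in ECs.

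Cox4i2 and Ndufa4l2, both known to be induced by low oxygen, varied widely among the β cell libraries. Cox4i2 scored 23, 3, 209 and 1085 in No Dox β cells, 590, 298, 263 and 560 in ECs and 124, 81, 158 and 27 in MΦs. Ndufa4l2 scored 1, 31, 427 and 1893 in No Dox β cells, 11, 34, 24 and 32 in ECs and 36, 13, 2 and 24 in MΦs. Neither gene passed between β cells and another type at No Dox (adjusted p from 0.144 to 0.882), and the ECs and MΦs, which did not overlap in Cox4i2, did not pass either (2.29 ± 1.37, adjusted p = 0.208). The summed pericyte and stromal markers of the same 4 β cell libraries were 1025, 1121, 148558 and 522113, in the same order as the Ndufa4l2 scores, and their part in these values was not tested. The main form Cox4i1 scored 866 to 2133 in β cells, 1383 to 2186 in ECs and 930 to 2996 in MΦs and did not pass. Ndufa4, counted here with complex I by its name although its protein is also found in complex IV, was lower in MΦs (150, 402, 327 and 430) than in ECs (577, 762, 871 and 680), by 1.23 ± 0.38 on the log2 scale (adjusted p = 0.0207). That call was lost without EC library 3 (0.0593) or MΦ library 1 (0.0509).

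**Figure D3:**
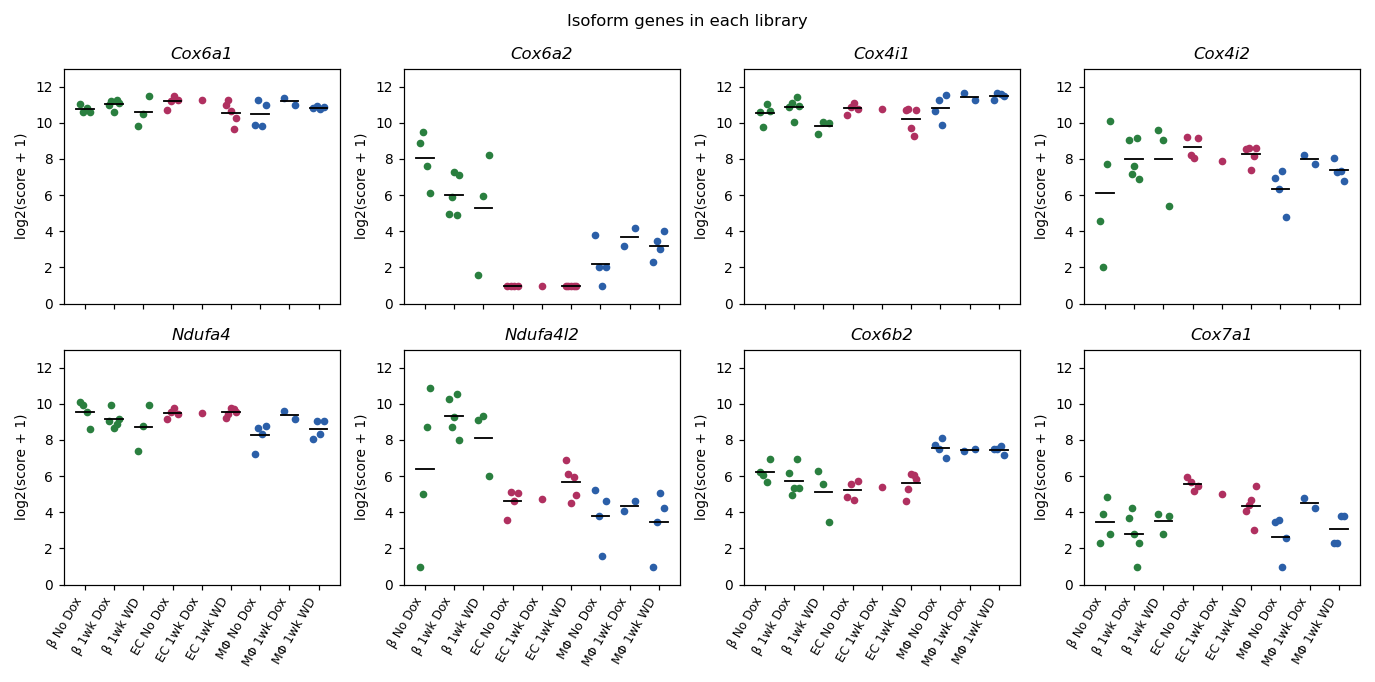
Log2(score + 1) of 8 isoform genes in each library by cell type and time point; each point is a library, the bar is the mean of a group with more than 1 library, and a score of 1 lies at 1 on this axis. Cox6a2 lies on that floor in all 10 EC samples, Cox6b2 is high in MΦs and Cox7a1 in No Dox ECs, while Cox4i2 and Ndufa4l2 are scattered among the β cell libraries.

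Among the subunits without such a partner, single genes of each complex separated the cell types. In complex I, Ndufa1, a small membrane subunit needed for assembly, scored 1066, 1008, 787 and 453 in No Dox β cells and 310, 232, 358 and 225 in ECs, a log2 difference of 1.51 ± 0.40 (adjusted p = 0.00814). Ndufs5, an accessory subunit, scored 156, 147, 122 and 183 in β cells, 122, 71, 81 and 77 in ECs and 27, 50, 4 and 40 in MΦs. It was higher in β cells than in MΦs by 2.70 ± 0.64 (adjusted p = 0.00383) with no overlap. It was also higher in ECs than in MΦs by 1.90 ± 0.64 (adjusted p = 0.0318). The EC call was lost without any 1 of the 4 EC libraries (0.0534 to 0.0851). The core subunit Ndufs1 was higher in β cells (1298, 1250, 1196 and 1734) than in MΦs (1013, 996, 1017 and 947) by only 0.45 ± 0.14 (adjusted p = 0.0184), with ECs between them at 1150 to 1382. Ndufa8 was the largest fall among non-overlapping complex I genes in β cells against ECs (-0.70 ± 0.27, adjusted p = 0.0456), and this call was lost without 7 of the 8 libraries of those groups (0.0586 to 0.104).

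In complex II, the membrane anchor Sdhc scored 2008, 1152, 1410 and 1331 in β cells and 687, 732, 422 and 1114 in MΦs (log2 difference 1.05 ± 0.27, adjusted p = 0.00571), whereas the catalytic Sdha lay between 3832 and 5091 in all No Dox samples and did not pass. In complex III, Uqcrfs1, the Rieske iron-sulfur protein, was low in ECs (349, 457, 456 and 407) against 561 to 883 in β cells and 514 to 944 in MΦs. Its log2 difference was 0.81 ± 0.23 for β cells against ECs (adjusted p = 0.0119) and -0.85 ± 0.23 for ECs against MΦs (adjusted p = 0.00966). Uqcr11 was higher in β cells than in MΦs by 1.16 ± 0.40 (adjusted p = 0.0277), a call that was lost without β cell library 1 or 3 or MΦ library 1 or 3 (0.0575 to 0.0798). The core protein Uqcrc1 overlapped among all types. In complex V, Atp5b, the catalytic β subunit, stood higher in ECs (14367, 15600, 18568 and 13738) than in MΦs (8889, 11787, 9116 and 9708), by 0.66 ± 0.17 (adjusted p = 0.00715), and it was 10965 to 16896 in β cells. Atp5l (1.15 ± 0.29, adjusted p = 0.00561) and Atp5g3, a gene for the membrane ring subunit c (1.05 ± 0.23, adjusted p = 0.00262), were higher in β cells than in MΦs. Of the 3 genes that encode subunit c, Atp5g3 scored 1799 to 2280 in β cells, 879 to 1393 in ECs and 667 to 1399 in MΦs, while Atp5g1 (1687 to 2741, 902 to 1156 and 392 to 2281) and Atp5g2 (1054 to 1626, 955 to 1426 and 313 to 1909) were more variable in MΦs. Atp5g3 was also higher in β cells than in ECs by 0.75 ± 0.23 (adjusted p = 0.0193), which was lost without β cell library 1 (0.0510) or EC library 1 (0.0620). Among the calls against MΦs in this and the preceding paragraph, some were lost without MΦ libraries 1 and 3 together. These were Sdhc (adjusted p = 0.0511), Ndufs1 (0.0516), Atp5l (0.0804), Atp5b (0.0808), Ndufs5 in ECs (0.0951) and Uqcr11 (0.291). Those for Ndufs5 and Atp5g3 in β cells and Uqcrfs1 in ECs passed. For isoform calls against MΦs, the highest adjusted p over all alternatives (limma) was 0.139 for Ndufa4 in ECs. In β cells it was 0.248 for Cox7a2, 0.152 for Cox6b2 and 0.163 for Cox8b.

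Of the 9 members that are no subunits, Atp5s, which encodes a protein linked to ATP synthase, was lowest in ECs, which overlapped neither other type. It scored 922, 733, 493 and 604 in No Dox β cells, 156, 186, 150 and 172 in ECs and 409, 337, 638 and 212 in MΦs. β cells were above ECs by 2.01 ± 0.33 on the log2 scale (adjusted p = 0.000331) and ECs were below MΦs (-1.16 ± 0.33, adjusted p = 0.0126), though this was lost without MΦ libraries 1 and 3 (adjusted p = 0.119). β cells and MΦs overlapped (0.86 ± 0.33, adjusted p = 0.0421). Atp5sl, an assembly factor of complex I despite its name, was lower in β cells than in MΦs (-0.75 ± 0.25, adjusted p = 0.0234), a call lost without β cell library 2 (0.0610) or MΦ library 4 (0.0692).

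At 1wk WD the balance between higher and lower members was more even. Of 90 members, 17 passed between β cells and ECs (9 higher, 8 lower in β cells; 18.9% against 52.6% of all genes), 19 between β cells and MΦs (11 higher, 8 lower; 21.1% against 58.2%) and 25 between ECs and MΦs (9 higher, 16 lower in ECs; 27.8% against 54.0%). The median log2 difference of the members was 0.07, -0.09 and -0.15 in the same order. Relative to the median of all genes, the members stood at -0.05, -0.23 and -0.14. The split depended on scaling: under quantile normalization 5 members were higher and 25 lower in β cells against ECs, with a median of -0.41 in place of 0.07, and 2 higher and 25 lower against MΦs, while scaling by the median of ratios gave 11 and 5 against ECs. At No Dox quantile normalization gave 13 and 6 for β cells against ECs. Between No Dox and 1wk WD the change in these cell type differences was tested for MΦs against ECs only, as given further on. The 3 WD β cell libraries were uneven: the third, with summed β cell markers of 10941261 against 636632 and 1919441 in the others, had the highest subunit median (9.80 against 8.94 and 9.10). Without that library, the only β cell library of the later run of numbers, 23 members passed between β cells and ECs (6 higher, 17 lower; median -0.11) and 29 between β cells and MΦs (6 higher, 23 lower; median -0.41). Without EC library 5 11 members passed between β cells and ECs, and without MΦ library 2 11 passed between β cells and MΦs.

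Several contrasts of the isoforms and of Atp5s were also seen at this time point in separate samples. Cox6b2 was lower than in MΦs (178, 180, 200 and 145) both in ECs (24, 38, 69, 67 and 56; -1.86 ± 0.55, adjusted p = 0.0110) and in β cells (78, 47 and 10; -2.34 ± 0.62, adjusted p = 0.00574). Atp5s was higher in β cells (373, 616 and 603) than in ECs (121 to 203) by 1.84 ± 0.32 (adjusted p = 0.000346). Cox6a2 scored above the ECs, which were all listed at 1, and here too it reached the minimum for testing only through the β cells. Ndufa4l2, by contrast, had not passed between β cells and MΦs at No Dox. At 1wk WD it scored 543, 633 and 63 in β cells against 1, 10, 33 and 18 in MΦs (4.68 ± 1.01, adjusted p = 0.00141). The pericyte and stromal markers of the same β cell libraries summed to 348364, 318871 and 24978, and their part was not tested.

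Other genes passed at 1wk WD. Uqcrh, the hinge protein of complex III, was lowest in β cells (459, 449 and 542), against 761 to 1273 in ECs (-1.01 ± 0.20, adjusted p = 0.000784) and 928 to 1338 in MΦs (-1.18 ± 0.21, adjusted p = 0.000257), although it has a near-identical copy elsewhere in the genome and its score is uncertain. Cox4i1 was lower than in MΦs (2489, 3206, 3041 and 2830) in β cells (670, 1051 and 1023; -1.68 ± 0.34, adjusted p = 0.000918) and in ECs (618 to 1753; -1.26 ± 0.30, adjusted p = 0.00301). Ndufb2, an accessory subunit of complex I, was higher in ECs (588 to 971) than in MΦs (304 to 356) by 1.21 ± 0.21 (adjusted p = 0.000223). The reverse held for Ndufa13, another complex I subunit (228 to 525 against 914 to 996; -1.32 ± 0.26, adjusted p = 0.000656), for Sdhb, the iron-sulfur subunit of complex II (-0.89 ± 0.25, adjusted p = 0.00908), and for Atp5e, the epsilon subunit of complex V (-1.34 ± 0.30, adjusted p = 0.00178). Atp5j, a stalk subunit of complex V, was higher in ECs than in MΦs (0.92 ± 0.23, adjusted p = 0.00431). EC libraries 3 and 4 were low in complex V, with medians of 9.35 and 9.01 against 9.52 to 9.93 in the other 3; without them 16 members passed between ECs and MΦs (7 higher, 9 lower) and 10 between β cells and ECs.

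**Figure D4:**
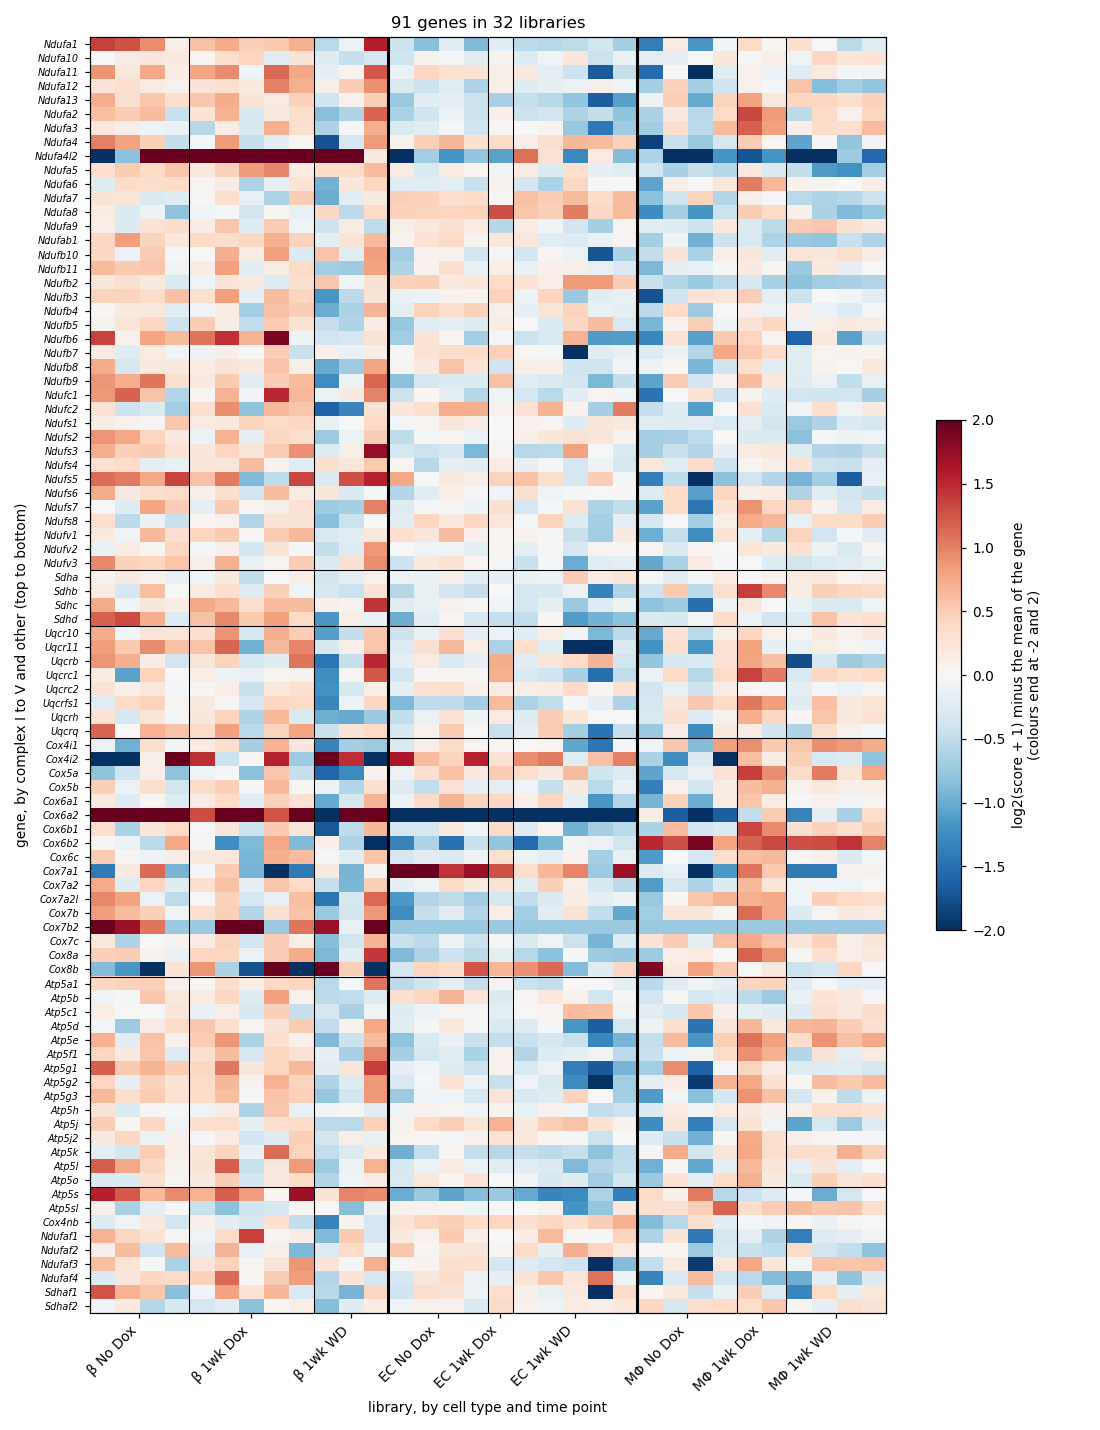
Log2(score + 1) of 91 members in 32 libraries, each minus the mean of its gene over all libraries, ordered by complex from I at the top to the 9 other genes at the bottom; colours end at -2 and 2. Cox6a2, Cox6b2, Cox7a1, Ndufa4l2 and Atp5s differ between cell types, and within groups EC libraries 3 and 4 at 1wk WD and MΦ libraries 1 and 3 at No Dox are low in many genes.

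In β cells the question was whether the subunit genes moved while VEGF-A was induced or after it was withdrawn. Between 1wk Dox and No Dox 0 of 90 members passed (limma with Benjamini-Hochberg adjustment; 0 had an unadjusted p under 0.05, as 6.99% of all genes did), with a median log2 difference of 0.02 against 0.03 for all genes, of which 0.0122% passed. Between 1wk WD and No Dox 0 members passed (0.00% of all genes passed; 6 members, or 6.67%, had an unadjusted p under 0.05, as did 8.17% of all genes), yet only 16 of 90 were higher and the median was -0.36 against 0.06. Against 1wk Dox the median at 1wk WD was -0.34, with 0 members passing (0.00% of all genes passed), 10 members at an unadjusted p under 0.05 (11.1%, against 6.31% of all genes) and 14 of 90 higher. Uqcrh had the lowest adjusted p of the members in both (-0.94 ± 0.31, adjusted p = 0.563, and -1.0 ± 0.29, adjusted p = 0.643). The cytosolic ribosomal protein genes, another set of short abundant transcripts, had medians of -0.44 and -0.53 over 79 genes, with 0 passing (limma). Markers of other cells also had other fitted levels at 1wk WD than at No Dox, with 0 passing (limma). Acinar markers had a median log2 difference of -5.84 (0 of 7 higher), pericyte and stromal markers of 3.54 (8 of 8 higher), MΦ markers of 1.71 (9 of 10) and EC markers of 1.19 (9 of 9 tested). Their part in the shift of the members was not tested. The 3 WD libraries had subunit medians of 8.94, 9.10 and 9.80, the last being that of the later run of library numbers. Without it the members' medians were -0.57 against No Dox and -0.59 against 1wk Dox, with 8 of 90 higher in each and 0 passing (limma).

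The No Dox β cell group was mixed, and the calls of 3 members depended on which of its libraries were kept. Libraries 3 and 4 were left out together in an alternative chosen with earlier results of these data known, since genes of stromal cells were high in them. Against libraries 1 and 2 alone, 2 of 90 members passed as higher at 1wk Dox (7.50% of all genes passed). These were Ndufa4l2, with 1219, 418, 608, 1502 and 255 against 1 and 31, and Cox4i2, with 538, 142, 196, 561 and 116 against 23 and 3. The libraries left out held the highest No Dox scores of both genes (427 and 1893, and 209 and 1085). The choice of libraries itself set these differences and they count as a description. With all 4 libraries Ndufa4l2 was at 2.95 ± 1.63 (adjusted p = 0.746). At 1wk WD both genes again passed as higher against libraries 1 and 2, and Sdhd, a membrane anchor of complex II, as lower (597, 1478 and 1228 against 3044 and 3313), while 8.91% of all genes passed. The libraries left out held the lowest No Dox scores of Sdhd (2227 and 1125). Pericyte and stromal markers moved with Ndufa4l2 and Cox4i2, at 1025 and 1121 in No Dox libraries 1 and 2, 106030 to 501058 after 1wk Dox and 24978 to 348364 after 1wk WD. Pdgfrb, a defining pericyte marker, was 80 and 66 in those No Dox libraries. Their part in these differences was not tested.

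In ECs 0 of 89 members passed between 1wk WD and No Dox (limma; 16, or 18%, had an unadjusted p under 0.05, as did 21.9% of all genes), with a median log2 difference of -0.08, while 3.90% of all genes passed. Cox7a2l was nearest, at 2832, 3302, 4399, 3507 and 3711 against 1804, 2666, 2800 and 2461 (0.55 ± 0.15, adjusted p = 0.0642), and it passed without WD library 1 (0.0419). Markers of other cells differed between these EC groups. Summed acinar markers were 57376 to 1531367 at No Dox and 682 to 55121 at 1wk WD (7 of 7 passed as lower), and summed pericyte and stromal markers 5620 to 12594 and then 16832 to 70758 (4 of 8 passed as higher). Their part in the EC values was not tested. The single EC sample at 1wk Dox allowed no test. Its median log2 difference from the No Dox mean was 0.15 over 89 members, against 0.06 for all genes; 32 members were above (36.0%, against 35.9% of all genes) and 14 below (15.7% against 26.3%) the range of the 4 No Dox samples. Only Ndufb9, a complex I subunit (1740 against 657 to 963), and Uqcrfs1 (1008 against 349 to 457) lay both above that range and at least 2-fold from the No Dox mean (0 lay below it in that way), which is 2 of 89 members against 10.1% of all genes in either direction. This sample belongs to the later run of library numbers and the No Dox samples to the earlier.

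In MΦs 8 of 89 members tested were higher after 1wk Dox than before treatment and 0 were lower (9.0%, against 4.58% of all genes called in either direction and 2.70% called higher). Of these, 4 encode complex IV subunits (Cox5a, Cox6b1, Cox7a2 and Cox8a), 2 complex V (Atp5a1 and Atp5g3), and Sdhb and Uqcrc1 belong to complexes II and III. Both 1wk Dox libraries belong to the later run of library numbers and all other MΦ libraries to the earlier, so no value within a run could be had. The treatment and the run cannot be told apart. The CD11b+ sort does not separate resident from recruited cells, which therefore cannot be told apart here. Of all members, 78 of 89 had a higher fitted level at 1wk Dox, with a median log2 difference of 0.55 against 0.03 for all genes. The medians by complex were 0.46 in I, 0.48 in II, 0.67 in III, 0.99 in IV and 0.69 in V.

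Cox5a, a subunit on the matrix side of complex IV, scored 210, 345, 394 and 534 at No Dox and 1147 and 835 at 1wk Dox, a rise of 1.47 ± 0.35 on the log2 scale (adjusted p = 0.0337). Atp5g3 scored 667, 1399, 817 and 1143 and then 2718 and 2184 (1.33 ± 0.27, adjusted p = 0.0206). Sdhb rose from 453, 872, 422 and 758 to 1579 and 1178 (1.19 ± 0.29, adjusted p = 0.0387). In none of these did the groups overlap. Uqcrc1 scored 800, 1149, 592 and 1143 at No Dox and 2212 and 1790 at 1wk Dox (1.16 ± 0.29, adjusted p = 0.0404). Cox6b1 (1.31 ± 0.29, adjusted p = 0.0277), Cox8a (1.13 ± 0.24, adjusted p = 0.0234) and Cox7a2 (1.03 ± 0.26, adjusted p = 0.0443) rose by over 2-fold, and Atp5a1, the α subunit of ATP synthase, by less (0.69 ± 0.15, adjusted p = 0.0234). Its partner in the catalytic head, Atp5b, stood at 8091 and 7024 against 8889 to 11787 (-0.38 ± 0.16, adjusted p = 0.204).

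**Figure D5:**
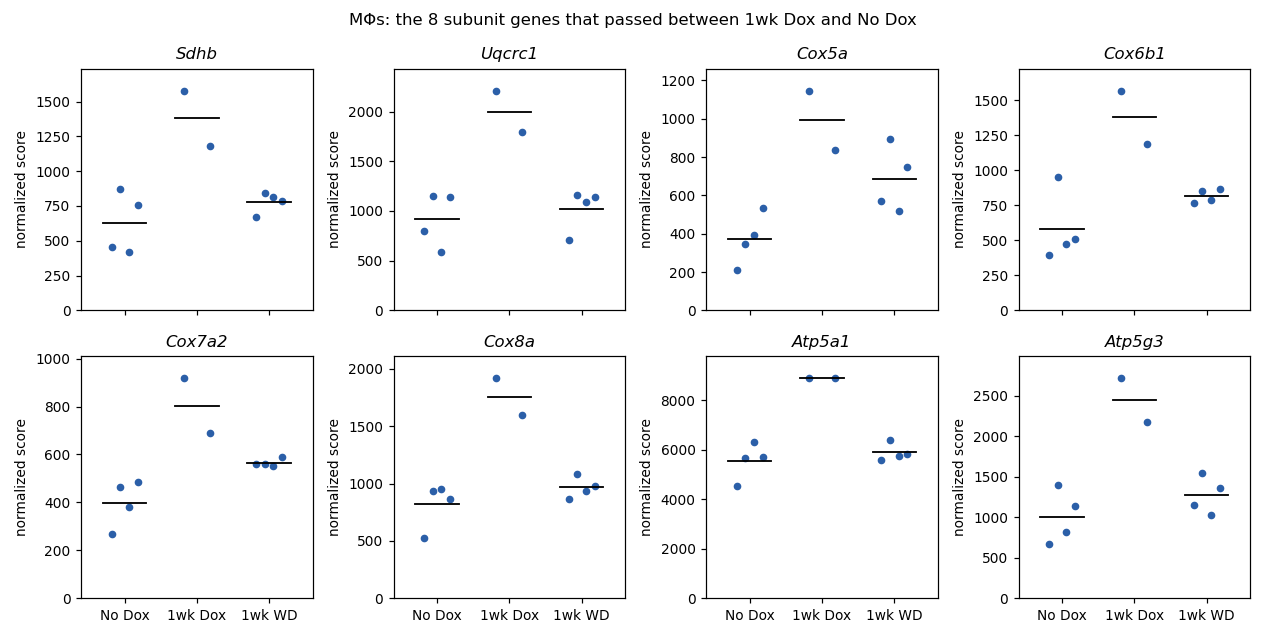
Normalized scores of the 8 members that passed between 1wk Dox and No Dox in MΦs, in 4 No Dox, 2 1wk Dox and 4 1wk WD libraries; each point is a library and the bar is the group mean. In each panel both 1wk Dox libraries lie above all No Dox libraries.

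These calls rested on 2 samples and on the settings of the test. With no trend of the variance 0 members passed, with the replicate number as a block 0, with no filter on low scores 1, and with sample weights 20. Without either 1wk Dox library 0 members passed (adjusted p from 0.0921 to 0.606 for Cox5a, Cox6b1, Cox7a2, Cox8a, Atp5g3, Sdhb and Uqcrc1), the remaining library being assumed to vary like the other groups. Without No Dox library 1 there were 3, as Cox5a, Cox6b1, Cox7a2, Sdhb and Uqcrc1 lost their calls (adjusted p from 0.0522 to 0.0787). Without No Dox library 4 there were 13, and without WD library 2, 3 or 4, which enter through the shared spread, 5, 5 or 4. Without No Dox libraries 1 and 3 the members' median fell to 0.17 and 4 passed against 5.31% of all genes: Atp5g3 (0.95 ± 0.22, adjusted p = 0.0337), Cox8a (0.96 ± 0.18, adjusted p = 0.0157), Atp5a1 (0.64 ± 0.12, adjusted p = 0.0169) and Cox4i2 (2.39 ± 0.57). The libraries left out held the highest No Dox scores of Cox4i2, which did not pass with all libraries. That choice itself set the Cox4i2 difference, which counts as a description. Ribosomal protein genes had a median of 0.50, with 73 of 79 higher and 6 passing, and their relation to the members was not tested. Summed acinar markers were 20491 to 10549636 at No Dox and 866 and 2953 at 1wk Dox, and 3 of 7 passed as lower. Summed EC markers were 1759 to 2433 at No Dox and 4287 and 3463 at 1wk Dox (8 of 9 tested higher, 0 passing by limma), and summed MΦ markers were 290627 to 402839 and then 559412 and 456127 (3 of 10 passed as higher). The part of these markers was not tested.

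At 1wk WD no MΦ member passed against either other time point (limma). Against No Dox 0 of 89 passed (limma; 12, or 13.5%, had an unadjusted p under 0.05, as did 17.3% of all genes), with 64 higher and a median of 0.24, and 1.23% of all genes passed. Without No Dox libraries 1 and 3 the median was -0.07 and 38 of 89 were higher, so that the direction turned. Cox5a (569, 895, 519 and 749) had the lowest adjusted p (0.92 ± 0.28, adjusted p = 0.121). Acinar markers had a median log2 difference of -6.60 from No Dox (0 of 7 higher). That of pericyte and stromal markers was 1.05 (8 of 8 higher) and that of EC markers 0.28 (6 of 9 tested), with 0 of these passing (limma). Of the MΦ markers 1 of 10 passed as higher. The part of these markers was not tested. Against 1wk Dox 0 of 89 passed (17, or 19.1%, had an unadjusted p under 0.05, as did 9.70% of all genes), with 20 higher and a median of -0.33; 0.0999% of all genes passed, and Atp5b was nearest (0.70 ± 0.16, adjusted p = 0.150). Without No Dox libraries 1 and 3, 4 members passed as lower at 1wk WD than at 1wk Dox against 0.959% of all genes: Cox8a (-0.86 ± 0.15, adjusted p = 0.0398), Cox7b (-0.92 ± 0.18, adjusted p = 0.0492), Atp5g3 (-0.95 ± 0.19, adjusted p = 0.0492) and Atp5a1 (-0.59 ± 0.10, adjusted p = 0.0362). The libraries left out are in neither group and act only through the shared spread, and the median stayed at -0.33. This alternative was chosen after seeing the data.

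Whether MΦs and ECs changed differently from No Dox to 1wk WD was tested directly with an interaction term. Of 89 members 1 passed, against 2.13% of all genes, and 22 had an unadjusted p under 0.05 (24.7%, against 21.2% of all genes). Atp5b scored 14367, 15600, 18568 and 13738 and then 11770, 13433, 12356, 8939 and 11375 in ECs, a log2 difference of -0.43. In MΦs it scored 8889, 11787, 9116 and 9708 and then 10645, 14083, 13277 and 11343, a log2 difference of 0.32. The fitted differences had opposite signs and differed by 0.75 ± 0.19 (adjusted p = 0.0480). The call was lost without any 1 of 14 of the 17 libraries, with adjusted p from 0.0549 to 0.112. The median of the members was 0.31 and 61 of 89 had a positive value, the change in MΦs minus that in ECs. Acinar markers moved between these time points in both cell types, with a median log2 difference of -6.58 in ECs and -6.60 in MΦs. Pericyte and stromal markers moved by 1.88 and 1.05. In MΦs 0 of these markers passed (limma), and their part was not tested.

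Genes that work with the respiratory chain were counted for comparison. The shares of all genes that passed were 48.6% between β cells and ECs, 54.8% between β cells and MΦs and 43.2% between ECs and MΦs at No Dox. Of 18 genes of the TCA cycle and pyruvate dehydrogenase, which supply its electrons, 6 were higher and 1 lower in β cells than in ECs at No Dox (38.9%), and 7 higher and 1 lower than in MΦs (44.4%). Suclg1, a subunit of succinate-CoA ligase, was higher in β cells in both (1.16 ± 0.28, adjusted p = 0.00527, and 1.51 ± 0.28, adjusted p = 0.000791), as was Pdha1 of pyruvate dehydrogenase (0.99 ± 0.14, adjusted p = 0.000102, and 0.69 ± 0.14, adjusted p = 0.00116), while Cs, citrate synthase, was lower in both (-0.57 ± 0.18, adjusted p = 0.0225, and -0.57 ± 0.18, adjusted p = 0.0198). Of 14 carriers and linked proteins, 4 were higher and 2 lower in β cells than in ECs (42.9%), and 3 higher and 1 lower than in MΦs (28.6%). Ucp2, an uncoupling protein family member, was highest in MΦs (47010 to 87849 at No Dox), with log2 differences of -2.57 ± 0.21 for β cells (adjusted p = 2.16e-06) and -1.70 ± 0.21 for ECs (adjusted p = 4.3e-05) against them. Slc25a4, an ADP/ATP carrier, was higher in β cells than in MΦs (1.44 ± 0.27, adjusted p = 0.000768). Of 20 assembly factors, 5 were higher and 3 lower in β cells than in ECs (40%) and 5 higher and 1 lower than in MΦs (30%). Between ECs and MΦs the counts higher and lower in ECs were 0 and 1 for the TCA cycle, 1 and 3 for the carriers and 3 and 2 for the assembly factors. Each of these shares was below that of all genes. At 1wk WD the TCA cycle genes counted 3 higher and 3 lower in β cells than in ECs, 2 and 2 against MΦs, and 3 and 5 in ECs against MΦs. The carriers counted 1 and 3, 0 and 5, and 2 and 5 in the same order, and the assembly factors 3 and 1, 3 and 0, and 4 and 0, against 52.6%, 58.2% and 54.0% of all genes. In ECs 1 carrier and 1 assembly factor were higher and 1 carrier was lower at 1wk WD than at No Dox, where 3.90% of all genes passed.

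Of 12 transcriptional regulators of respiratory genes, 3 were higher and 4 lower in β cells than in ECs (58.3% against 48.6% of all genes), and 1 higher and 5 lower than in MΦs (50% against 54.8%), shares near those of all genes. Gabpa, which binds the ETS motif, scored 4686 to 5715 in No Dox ECs, against 2283 to 2500 in β cells (-1.12 ± 0.13, adjusted p = 3.6e-05) and 2458 to 3718 in MΦs (0.82 ± 0.13, adjusted p = 0.000357). Nrf1 was lower in β cells than in ECs (-0.77 ± 0.13, adjusted p = 0.000429) and MΦs (-0.76 ± 0.13, adjusted p = 0.000414). The coactivator Ppargc1b was lowest in ECs, below β cells by 4.06 ± 0.45 (adjusted p = 1.83e-05) and below MΦs (-4.96 ± 0.45, adjusted p = 2.82e-06). None of the 12 passed between time points in MΦs or β cells (limma). Of the cytosolic ribosomal protein genes 47 of 79 were lower and 1 higher in β cells than in MΦs at No Dox, whereas 25 members were higher and 3 lower. These genes were not refitted without single libraries.

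Of the 91 members, 10 had at least 1 further copy of their transcript in the genome with at least 95% identity over at least 80% of its length, and their scores are uncertain because the reads of such copies could be split. Atp5l had 10, Atp5h 4 and Uqcrb 3; Atp5g2, Cox5b and Uqcr11 had 2 each, and Atp5k, Atp5o, Ndufs3 and Uqcrh 1 each. None of the 7 tissue-restricted isoforms had such a copy.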

How the data were processed

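RNA of sorted β cells, ECs and MΦs was sequenced as paired reads of 50 bases. Per the labels and the study's methods, the authors aligned them with TopHat 2.0 to mm9 and normalized gene values by TMM in Avadis NGS; the deposited values are whole-number scores with a lowest value of 1. Read depth is unknown, the annotation is not given in the sources used here, and whether gene length enters is not stated, so levels were compared only within a gene. RNA integrity was at least 5 in the methods and 7 per the labels. The table has 6 further columns of samples of another series, which were not used.

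Members and gene lists were chosen with earlier results of these data known. Scores were tested as log2(score + 1) with limma 3.58.1 (R 4.3.3; trended variance) wherever the mean of at least 1 fitted group reached 20. P-values were adjusted by Benjamini-Hochberg over all genes tested, and a gene passed at an adjusted p under 0.05. Separate fits covered the 3 cell types at a time point, the time points of each cell type, and the interaction; this scale understates the changes of low genes. The fits were tested on simulated data; the study's own test, given too briefly, was not repeated. Named were the isoform families, a core subunit of each complex, the largest non-overlapping rise and fall of each complex among passing members, and the lowest adjusted p where none passed; Cox7b, Sdhd and the genes named from linked lists were chosen after their values were seen. Alternatives changed the pseudocount, filter, scaling, variance model, sample weights and replicate block and left out libraries.

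Promoter sequences were read from NCBIM37 at the gene starts and strands deposited with the scores. A full window of 300 bases was obtained for all 91 members, and the starts were not checked against another annotation. Copies of the members' GENCODE transcripts were searched with BLAST 2.17.0. Tables were handled with Python 3.11.15 and pandas 2.3.3.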

Additional observations from a re-analysis of the deposited data

Results flagged for a closer look

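In 4 of 144 groups of values checked, the lowest sample lay far from the others of its group. Chance gives about 1 in 20, so this count is below what chance gives. The gap to the nearest sample is given as a share of the range of the group. Cox7b scored 606 in 1wk Dox β cell library 3, with a gap of 0.768. Uqcrc1 scored 664 in No Dox EC library 1 (0.985), 304 in 1wk WD EC library 4 (0.722) and 704 in 1wk WD MΦ library 1 (0.886). Atp5b changed differently from No Dox to 1wk WD in MΦs and ECs, by 0.75 on the log2 scale in the test of the difference itself (adjusted p = 0.0480, limma).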

How the results depend on the processing

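Of the 72 named differences that passed, 29 passed under every alternative and 0 reversed. The 72 and the 29 include calls of Cox6a2 and Cox7a1. These genes reached the minimum for testing only through the cell type where they were high, so those calls count as a description. Counts of members passing without single libraries ranged at No Dox from 11 to 21 for β cells against ECs, 18 to 31 for β cells against MΦs and 10 to 19 for ECs against MΦs, and at 1wk WD from 11 to 23, 11 to 29 and 17 to 36. Between time points they ranged from 0 to 0 in each β cell comparison, 0 to 1 in ECs, 0 to 13 for 1wk Dox against No Dox in MΦs, 0 to 1 for 1wk WD against No Dox, 0 to 0 for 1wk WD against 1wk Dox and 0 to 3 for the interaction; the median of the single EC sample ranged from 0.04 to 0.15. Alternatives without No Dox MΦ libraries 1 and 3 or without WD EC libraries 3 and 4 were chosen after seeing the data. The first gave 12 for β cells against MΦs at No Dox, 4 for 1wk Dox against No Dox and 4 for 1wk WD against 1wk Dox in MΦs, and 0 for the interaction; the second gave 10 for β cells against ECs and 16 for ECs against MΦs at 1wk WD and 0 for the interaction. Without No Dox β cell libraries 3 and 4, chosen with earlier results known, 2 passed after 1wk Dox and 3 after 1wk WD. Sample weights gave 26 for ECs against MΦs at No Dox, 8 for β cells against ECs and 51 for ECs against MΦs at 1wk WD, 20 for 1wk Dox against No Dox and 25 for 1wk WD against 1wk Dox in MΦs. With no filter on low scores there were 11 for β cells against ECs at 1wk WD, 1 for 1wk Dox in MΦs and 0 for the interaction. Without a variance trend there were 0 for 1wk Dox in MΦs and 0 for the interaction. Quantile normalization gave 30 for β cells against ECs at 1wk WD and moved the median of all genes from 0.07 to -0.16 at No Dox and from 0.12 to -0.28 at 1wk WD, and for β cells against MΦs from 0.12 to -0.05 and from 0.14 to -0.21. The interaction gave 2 with a pseudocount of 20, 2 with a minimum of 200 and 2 with scaling by the median of ratios; the median of the single EC sample was then 0.12 (pseudocount of 20) and 0.09 (median of ratios). The causes were not tested.

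With the replicate number as a block there were 9 for β cells against ECs at 1wk WD, 1 for ECs (Cox7a2l, adjusted p = 0.0328) and 0 for 1wk Dox against No Dox in MΦs; no other count moved by over 1.5 times. Same-numbered samples correlated from -0.48 to 0.40 and only 14 of 50 pairs exceeded 0.1. These numbers are those of the sample titles, the headers number some samples otherwise, and pairs across time points are included. Within a time point, same-numbered ECs and MΦs correlated from -0.12 to 0.38 at No Dox and from -0.07 to 0.14 at 1wk WD. Whether samples of a time point came from the same islets was therefore not settled. Depth is unknown, and low genes such as Cox7a1 and Cox7b2 are the least precise.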
